A study of Mus musculus with 16 samples.

Results

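Lactylation of histone H3 at lysine 18 (H3K18la) was set against trimethylation of histone H3 at lysine 4 (H3K4me3) in macrophages of the regenerating calf muscle. The comparison used all 4 H3K18la and all 4 H3K4me3 peak lists, 8 of the 16 lists of the series, which came from the same batch S035. The macrophages were sorted as CD45+CD11b+F4/80+CD64+ cells from the calf of C57BL6J wild type males of 8 to 12 weeks whose femoral artery had been ligated. Both marks were profiled by CUT&Tag, in which an antibody tethers a transposase to chromatin, so that DNA near the mark is cut out and sequenced. For each mark 2 libraries were made at 2 days post injury (dpi) and 2 at 4 dpi, and all animals carried the same injury, with no uninjured muscle among the libraries. The sorting gate sets the cell type, and its marker genes were not analysed here, because the coordinates are of the mouse build GRCm39 and the annotation at hand is of GRCm38. For the same reason places are given by position and not by gene.

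Lysine lactylation is an acyl mark whose donor derives from lactate, the end product of glycolysis, and it is laid on histone tails by enzymes that also acetylate. H3K4me3 is laid around the start sites of active genes by methyltransferases of the COMPASS family, and it is a common sign of a promoter. Acetylation of lysine 27 (H3K27ac) marks active promoters and enhancers, and trimethylation of lysine 27 (H3K27me3) marks genes held silent by Polycomb complexes. The lists of these further marks served here only to describe the places of the compared pair.

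Each list gives, for every peak, its start and end, the total and the maximum of the fragment coverage, and the interval in which the maximum lies. The H3K18la lists held 27578 and 15190 peaks at 2 dpi and 15511 and 17578 peaks at 4 dpi (replicates 1 and 2), and the H3K4me3 lists held 16962 and 16612 peaks at 2 dpi and 18413 and 16446 peaks at 4 dpi. The H3K18la list of replicate 1 at 2 dpi thus stood apart by its length. Of the 7802 places called in exactly 1 H3K18la list and in no H3K4me3 list, 6002 (76.9%) were in that list. The long list enters every value of H3K18la at 2 dpi. The share meeting the other mark, the places of H3K4me3 alone and the called length are given without it too. For the steps by rank and width, the distance of the maximum and the rank differences, it enters the ranges with each library left out. Sequencing depth is unknown, since the lists hold no read counts, and signal was not normalized between libraries. Signal was for this reason compared only as a rank within its own list. The study calls the libraries of a time point biological replicates, but neither it nor the labels say how animals were divided among them, and p-values measure the spread between these libraries.

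Peaks of the 8 lists that overlapped by at least 1 bp were merged into 35477 places. Both marks were called in all of their 4 libraries at 4254 places, which are named shared places from here on. H3K18la was called in all 4 libraries and H3K4me3 in none at 3364 places, and H3K4me3 was called in all 4 libraries and H3K18la in none at 4290 places. The other 23569 places were called in part of the libraries. Among the 9155 places with H3K18la in all 4 libraries, 46.5% were shared and 36.7% had no H3K4me3 peak in any library. Among the 13253 places with H3K4me3 in all 4 libraries, 32.1% were shared and 32.4% had no H3K18la peak. Shared places had a median length of 4240 bp, against 2324 bp for places of H3K18la alone and 2718 bp for places of H3K4me3 alone. A shared place merges peaks of all 8 lists and a place of a single mark those of 4, so this difference in length is partly set by the merging. Within each time point, 5625 places at 2 dpi and 5428 places at 4 dpi carried both marks in both libraries. H3K18la without any H3K4me3 made up 6142 of 12617 H3K18la places (48.7%) at 2 dpi and 4833 of 11268 (42.9%) at 4 dpi. H3K4me3 without any H3K18la was found at 5078 of 14131 H3K4me3 places (35.9%) at 2 dpi and at 7636 of 15382 (49.6%) at 4 dpi. The H3K4me3 share at 2 dpi rested on the long H3K18la list. Against single H3K18la lists, an alternative added after the data had been seen, 36.6% of the H3K4me3 places at 2 dpi had no peak in the long list and 59.5% had none in replicate 2, while 58.7% and 55.6% of those at 4 dpi had none in replicates 1 and 2. Without the long list the places of H3K4me3 alone over both time points numbered 5871.

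The first question was how often a peak of one mark meets the other. In H3K18la lists 39.7% and 46.2% of the peaks at 2 dpi and 49.9% and 47.0% at 4 dpi overlapped an H3K4me3 peak of the same time point, averaged over its 2 lists. In H3K4me3 lists 48.0% and 50.9% of the peaks at 2 dpi and 42.5% and 42.3% at 4 dpi overlapped an H3K18la peak. Without the long H3K18la list the H3K4me3 shares at 2 dpi were 37.4% and 40.01%, below those at 4 dpi, so the order of the time points turned. The marks overlapped in range, with 45.7% ± 4.3 for H3K18la and 45.9% ± 4.2 for H3K4me3 (SD, n = 4 each, exact 2-sided permutation test p = 0.943, adjusted p = 0.943). With every list cut to its 15190 peaks of highest total signal, 43.8% ± 1.2 of H3K18la peaks met H3K4me3 and 40.7% ± 1.2 of H3K4me3 peaks met H3K18la, and no value overlapped between the marks (difference 3.11 percentage points, SD over n = 4 each, exact permutation p = 0.0286, adjusted p = 0.0286). Leaving out the long H3K18la list gave a difference of 7.14 percentage points (n = 3 against 4, exact permutation adjusted p = 0.0357), while leaving out H3K18la replicate 2 at 2 dpi gave -5.74 points (n = 3 against 4, exact permutation adjusted p = 0.40). Asking that 50% of the peak be overlapped gave 10.2 points (n = 4 each, exact permutation adjusted p = 0.0571). The same pairs of lists enter the values of both marks, here and in the steps by rank and width below. Values of the marks are thus not independent, while the permutation test treats them as such, and its p-values are to be read with this limit.

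The chance that a peak met the other mark changed with its rank by total signal. Each list was divided into 10 deciles of equal size, from 1 (weakest) to 10 (strongest). In decile 1 of the H3K18la lists 23.2% to 39.1% of the peaks met H3K4me3, and in decile 10 70.5% to 74.98% did. The share climbed over most of the list, and the strongest 20% of the peaks exceeded the weakest 20% by 30.6 ± 4.4 percentage points in H3K18la lists. In H3K4me3 lists 81.6% to 87.8% of the peaks in decile 10 met H3K18la, and the strongest 20% exceeded the weakest 20% by 33.3 ± 5.4 percentage points. The step did not differ beyond the spread between libraries (difference -2.74, SD, n = 4 each, exact permutation p = 0.429, adjusted p = 0.536), but with lists of equal length it was 26.1 ± 3.5 points for H3K18la and 34.9 ± 3.3 points for H3K4me3 (n = 4 each, exact permutation adjusted p = 0.0286). The sign of this difference depended on the measure: it was 3.07 points with peaks ranked by maximum signal, 6.09 by mean signal and 17.8 with an overlap of 50% of the peak, none past the threshold. Total signal sums over width, and the step within each mark was smaller by the other rank measures. By maximum signal it was 19.8 ± 9.6 points in H3K18la lists and 16.7 ± 6.2 in H3K4me3 lists. By mean signal it was 22.1 ± 11.6 and 16.1 ± 4.0 points (SD, n = 4 each).

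**Figure D1:**
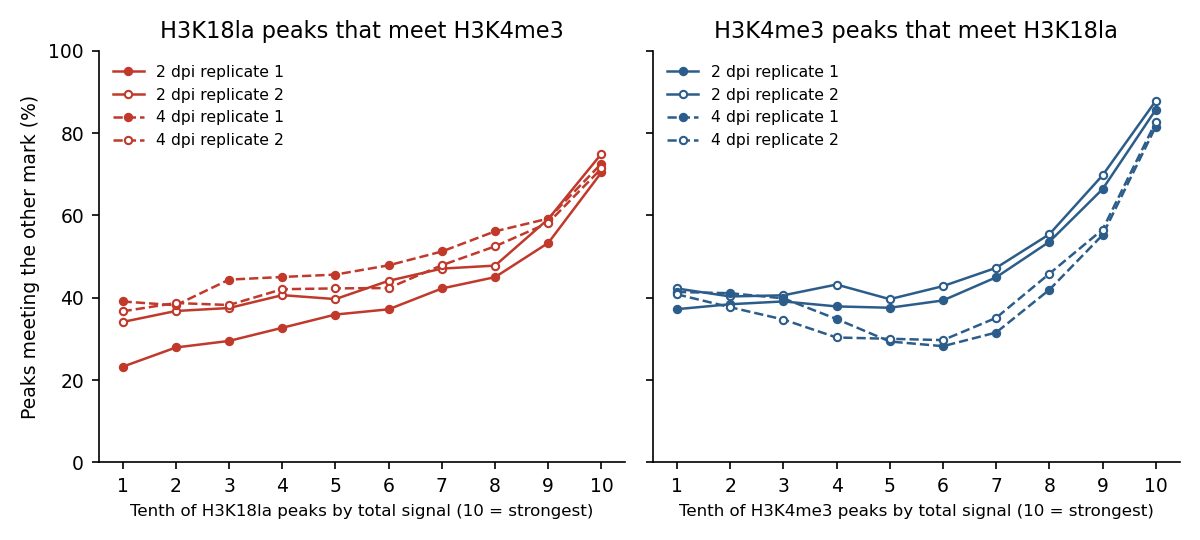
Share of peaks that meet the other mark (percent, vertical axis) by decile of total signal within the list (horizontal axis, 10 strongest), for the 4 H3K18la lists on the left and the 4 H3K4me3 lists on the right, each line 1 library. H3K18la lines climb over most of the list, while H3K4me3 lines stay flat or dip in the middle before they reach 81.6% to 87.8%.

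The lower part of the H3K4me3 lists followed another course. At 4 dpi the share of H3K4me3 peaks that met H3K18la was 41.4% and 40.8% in decile 1, 28.2% and 29.7% in decile 6, and 81.6% and 82.7% in decile 10. At 2 dpi it was 37.2% and 42.2% in decile 1 and 39.3% and 42.8% in decile 6. The flat course at 2 dpi averaged in the long H3K18la list. Against H3K18la replicate 2 alone, the 2 dpi shares were 31.1% and 35.7% in decile 1, 27.7% and 30.8% in decile 6, and 76.9% and 79.9% in decile 10. Against single H3K18la lists of either time, the lowest share was in decile 4, 5 or 6 in all 8 pairings of a 4 dpi H3K4me3 list and in decile 5 or 6 in 5 of the 8 pairings of a 2 dpi list. Where both marks were called, the strength of H3K18la was also lower in the upper middle of the H3K4me3 list. Its median percentile within its own list was 64.1 ± 3.7 in decile 1 of H3K4me3 places, 49.6 ± 3.6 in decile 8 and 78.3 ± 3.7 in decile 10 (SD, n = 4 H3K4me3 lists). Read the other way, the median percentile of H3K4me3 stayed between 57.7 and 67.2 in all deciles of H3K18la places (means over 4 H3K18la lists).

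Weak H3K4me3 peaks with and without H3K18la sat in different surroundings. In decile 1, 87.7% ± 8.5 of the H3K4me3 peaks that met H3K18la also met H3K27ac, against 39.2% ± 2.3 of those that did not (SD, n = 4 H3K4me3 lists each). H3K27me3, the Polycomb mark, was met by 5.78% ± 1.3 of the weak peaks with H3K18la and by 30.4% ± 2.0 of those without. The median percentile of H3K27ac, where present, was 69.1 ± 9.3 with H3K18la and 44.7 ± 1.3 without. Weak peaks with H3K18la were somewhat wider in each of the 4 lists, with a median of 1431 ± 196 bp against 1301 ± 185 bp without. The SD here is the spread between lists. The distance to the next H3K4me3 peak of the stronger 50% of the list was 31.4 ± 1.2 kb with H3K18la and 43.1 ± 4.3 kb without. In decile 10 H3K27ac was met by 99.7% ± 0.33 of the peaks with H3K18la and by 88.3% ± 10.1 of those without, and 6.79% ± 0.35 of those with H3K18la met H3K27me3, against 21.1% ± 8.2 of those without. All 4 H3K4me3 lists gave these directions for H3K27me3 and H3K27ac, and no test was made on them.

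Wide peaks met the other mark more often than narrow ones. In H3K18la lists 63.4% ± 4.2 of the widest 20% and 39.2% ± 2.5 of the narrowest 20% met H3K4me3, and in H3K4me3 lists 68.5% ± 4.1 of the widest 20% and 32.3% ± 2.7 of the narrowest 20% met H3K18la (SD, n = 4 each). The step from narrowest to widest was 22.3, 24.7, 27.7 and 22.4 percentage points in the H3K18la libraries (2 dpi replicates 1 and 2, then 4 dpi), against 39.0, 37.3, 32.0 and 36.6 points in the H3K4me3 libraries. No H3K18la value reached the lowest H3K4me3 value. The difference of -12.0 points had an exact permutation p of 0.0286 (n = 4 each), the smallest this design can give, and an adjusted p of 0.0714 over 5 library-level contrasts, so it missed the threshold. With lists of equal length it was -18.7 points (exact permutation adjusted p = 0.0286, n = 4 each), and the sign turned with an overlap of 50% of the peak, to 7.22 points (n = 4 each, adjusted p = 0.0571 by exact permutation).

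The share by width differed with strength. Each list was split into 3 classes of mean signal per base and, separately over the whole list, into 3 classes of width. The combinations of a strength and a width class thus held unequal numbers of peaks. Among H3K18la peaks of the strongest class 65.3% ± 2.1 of the wide and 45.2% ± 2.7 of the narrow peaks met H3K4me3, and among those of the weakest class 44.2% ± 11.6 of the wide and 33.6% ± 5.6 of the narrow did. Among H3K4me3 peaks of the strongest class 71.9% ± 5.5 of the wide and 34.9% ± 6.2 of the narrow peaks met H3K18la, and among those of the weakest class 46.5% ± 2.2 of the wide and 41.1% ± 2.1 of the narrow did (SD, n = 4 each). The H3K4me3 peaks that met H3K18la least often were narrow peaks of the middle class of strength, with 27.9% ± 4.8.

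At shared places the called length of H3K18la was shorter. Medians were 2698 and 1922 bp at 2 dpi and 2013 and 2311 bp at 4 dpi in H3K18la libraries, and 2620 and 2923 bp at 2 dpi and 3469 and 2712 bp at 4 dpi in H3K4me3 libraries. Only the long H3K18la list overlapped the H3K4me3 range. The means were 2236 ± 350 bp for H3K18la and 2931 ± 381 bp for H3K4me3 (SD, n = 4 each, exact permutation p = 0.0571, adjusted p = 0.0952). Without the long list the difference of -860 bp passed the threshold (n = 3 against 4, exact permutation adjusted p = 0.0357). H3K18la was also more often broken up: 22.1% ± 2.6 of shared places held more than 1 H3K18la peak, against 9.90% ± 4.2 that held more than 1 H3K4me3 peak (SD, n = 4 each, no test).

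**Figure D2:**
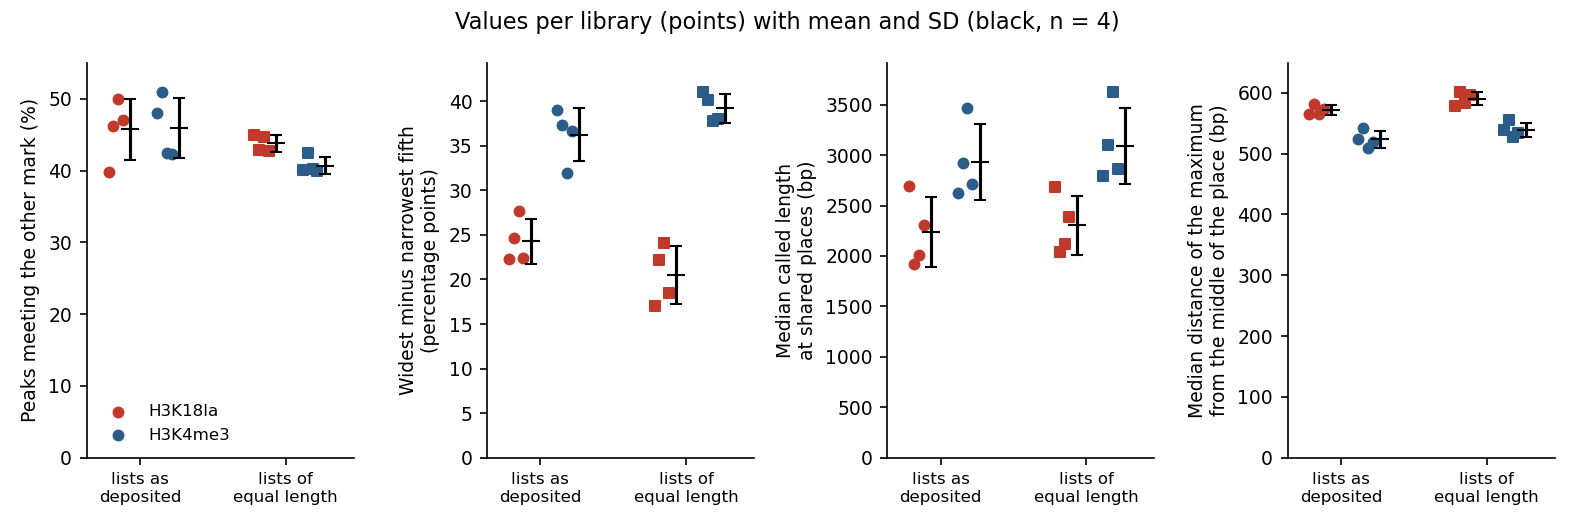
Values per library for H3K18la (red) and H3K4me3 (blue): share of peaks meeting the other mark (percent), step from the narrowest to the widest 20% (percentage points), median called length at shared places (bp) and median distance of the maximum from the middle of the place (bp). Circles are lists as deposited, squares are lists cut to 15190 peaks, and black marks give the mean and SD (n = 4); with equal lengths the marks no longer overlap in any of the panels.

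The next question was whether a place that ranks high for one mark ranks high for the other. Across the 4254 shared places the Spearman correlation of total signal was 0.02 to 0.21 over the 16 pairs of an H3K18la and an H3K4me3 library, with a median of 0.10, which was 0.23 with only the stronger 50% of each list. Pairs of H3K18la libraries gave 0.78 to 0.90 and pairs of H3K4me3 libraries gave 0.93 to 0.98 (6 pairs each). With the maximum in place of the total the correlation between marks was -0.08 to 0.11. Called length was the quantity that the marks shared most, with 0.30 to 0.51 between marks. Lengths are summed within places merged from the peaks of both marks, so the lengths of the marks are partly tied by that rule. These correlations run across places, which are not independent replicates, and points of 1 library share its depth. Shared places lay high in both lists, with a median of the mean percentile of 73.6 for H3K18la and 72.1 for H3K4me3. H3K18la was in the strongest 20% of its list at 1736 shared places (40.8%) and H3K4me3 in that of its own list at 1778 (41.8%). Both marks were in the strongest 20% of their lists at 805 shared places (18.9%), a joint share to be read against these single shares. H3K18la was in the strongest 20% with H3K4me3 in the weaker 40% at 427 places (10.04%), and the reverse held at 136 places (3.20%).

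Ranks at shared places were tested with limma as normal scores, so that a difference is in SD units of the rank distribution among shared places, H3K18la minus H3K4me3. Of the 4254 places tested, 1489 (35%) ranked higher in H3K18la and 1730 (40.7%) ranked lower at an adjusted p under 0.05 (limma, Benjamini-Hochberg), 75.7% in either direction. These shares are the background against which the groups below are read. With ranks taken within the whole list, 1528 places were higher and 1415 lower, so the excess of lower calls turned. Ranks within a library have a fixed sum, so that places higher in one mark are offset by others, and the calls say nothing of the amount of either mark. The 4 H3K18la values lay all above the 4 H3K4me3 values at 30.8% of the places and all below them at 35.6%. At 2 dpi alone 1307 places were higher and 1412 lower (30.7% and 33.2%), and at 4 dpi alone 1306 and 1433 (30.7% and 33.7%). The same direction was called at both times at 2264 places (53.2%).

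**Figure D3:**
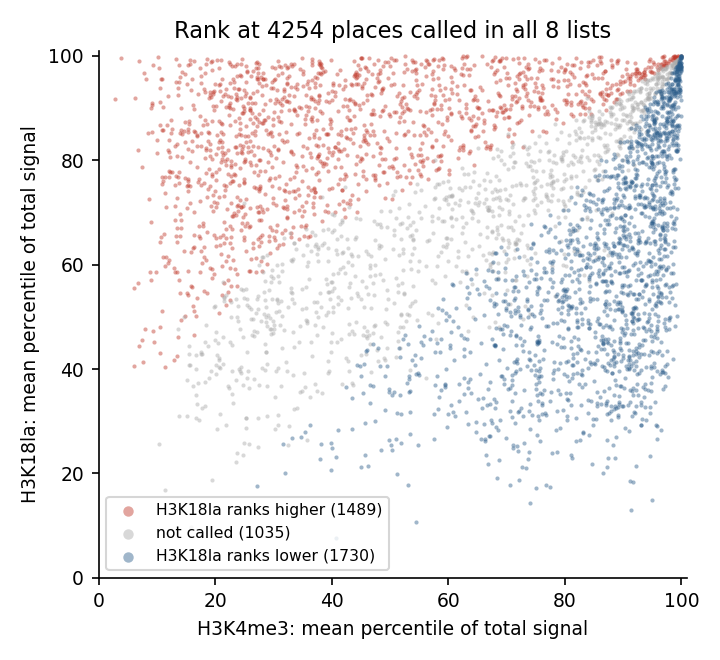
Mean percentile of total signal in the 4 H3K18la lists (vertical axis) against that in the 4 H3K4me3 lists (horizontal axis) at the 4254 shared places, each point 1 place. Red points ranked higher in H3K18la (1489), blue points lower (1730) and grey points were not called (1035); the points fill most of the field, and many lie at the upper edge along the whole width.

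Length went with the direction. Among the 851 shared places with the shortest H3K4me3 called length (228 to 1943 bp), 504 (59.2%) ranked higher in H3K18la and 97 (11.4%) lower. Among the 850 places with the greatest H3K4me3 length (4630 bp and more), 161 (18.9%) ranked higher and 495 (58.2%) lower. Total signal sums over length, so length and total are not independent measures. At places called higher in H3K18la the median called length was 3130 bp for H3K18la and 2287 bp for H3K4me3, and at places called lower it was 1734 bp for H3K18la and 3606 bp for H3K4me3. H3K18la was the longer mark at 76.6% of the places called higher and at 0.81% of those called lower. H3K27ac was called in all 4 of its libraries at 97.4% of the higher and 98.6% of the lower places, with a median percentile of 90.5 ± 3.9 and 89.98 ± 1.1, beside 92.3% and 84.5 ± 4.7 at places that were not called (SD, n = 4 H3K27ac libraries). Over all shared places the share was 96.6%. H3K27me3 was called in all 4 of its libraries at 172 shared places, of which 46 (26.7%) ranked higher in H3K18la and 71 (41.3%) lower. Of the 56 shared places on chromosome X, 14 (25%) ranked higher and 22 (39.3%) lower.

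The 8 places at which H3K18la ranked furthest above H3K4me3 had H3K18la at the 95.2 percentile or above in every list and H3K4me3 at the 39.0 percentile or below. They were long, 4.78 to 15.6 kb (4776 to 15598 bp), H3K18la covered at least 4.07 kb of each in every library, and H3K4me3 covered 0.82 to 3.85 kb. The strongest lay at chr1:191007596-191016177. Its H3K18la percentiles were 99.4 and 99.2 at 2 dpi and 99.8 and 99.7 at 4 dpi, against H3K4me3 percentiles of 4.44 and 1.65 at 2 dpi and 8.28 and 0.86 at 4 dpi. The difference was 4.74 ± 0.18 (SE, limma adjusted p = 4.0e-07, 4 libraries per mark). In both directions the 8 places were chosen as the largest called differences whose marks did not overlap. Separation of the libraries and small p-values at these places thus follow from the choice.

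A further place of the 8 lay close by, at chr1:190929374-190935326, with H3K18la at the 96.2, 95.2, 98.6 and 96.8 percentiles and H3K4me3 at the 2.49, 0.62, 17.5 and 10.2 percentiles (difference 3.63 ± 0.21, SE, limma adjusted p = 2.2e-06). At chr8:117792939-117808536 H3K18la covered 15077, 12098, 7930 and 11135 bp at percentiles from 99.5 to 99.9, and H3K4me3 covered 1172, 1400, 1537 and 1254 bp at percentiles from 7.97 to 14.4. That place carried a short H3K4me3 peak inside a broad H3K18la domain, and the difference was 4.35 ± 0.15 (SE, limma adjusted p = 2.9e-07). At chr4:32356117-32367303 the difference was 4.10 ± 0.18, at chr19:29460097-29468133 it was 3.97 ± 0.14, and at chr8:128889199-128899948, where H3K4me3 varied most, with percentiles of 29.1, 5.57, 39.0 and 0.88, it was 3.81 ± 0.42 (SE). The remaining members were chr1:171443397-171448172 with 3.68 ± 0.18 and chr10:96208720-96215637 with 3.61 ± 0.23 (SE). All 8 places were called for H3K27ac in all 4 libraries, at mean percentiles from 89.9 to 99.6, and none was called for H3K27me3 in more than 1 library.

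**Figure D4:**
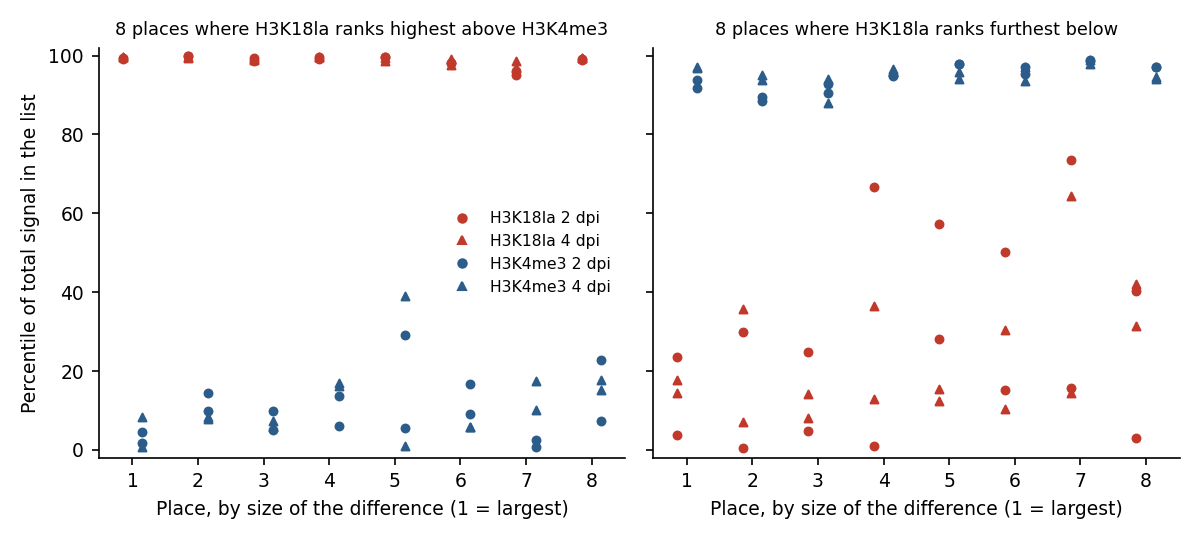
Percentile of total signal within each list (vertical axis) for the 8 shared places with the largest rank difference in each direction (horizontal axis, 1 largest), H3K18la in red and H3K4me3 in blue, circles 2 dpi and triangles 4 dpi. Places were chosen among those called whose marks did not overlap. On the left all H3K18la points lie at 95.2 or above and all H3K4me3 points at 39.0 or below. On the right H3K4me3 points lie at 88.0 or above and H3K18la points scatter from 0.48 to 73.4.

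The 8 places at the other end held H3K4me3 at the 88.0 percentile or above in every library, while H3K18la varied between libraries, with lowest values from 0.48 to 14.4 and highest values from 23.5 to 73.4. At chr5:137742999-137748682 H3K18la percentiles were 23.5 and 3.85 at 2 dpi and 14.4 and 17.8 at 4 dpi, against H3K4me3 percentiles of 91.9 and 93.7 at 2 dpi and 97.1 and 96.8 at 4 dpi. H3K18la covered 655 to 1671 bp there and H3K4me3 4487 to 5684 bp, and the difference was -3.06 ± 0.15 (SE, limma adjusted p = 1.2e-06). At chr9:21197543-21203463 H3K18la percentiles were 29.9, 0.48, 35.9 and 7.18, against H3K4me3 percentiles of 88.6, 89.4, 93.8 and 95.2 (difference -2.88 ± 0.30, SE, limma adjusted p = 4.4e-05). The H3K18la value of replicate 2 at 2 dpi was the lowest of the 4 H3K18la libraries at 5 of these 8 places.

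The place at chr4:72115460-72122539 differed from the other members by its H3K27me3. It carried that mark in all 4 libraries at a mean percentile of 95.9, beside H3K27ac at 70.9, and H3K18la stood at 57.3, 28.2, 15.5 and 12.4, against H3K4me3 at 97.9, 97.9, 94.1 and 95.9 (difference -2.78 ± 0.15, SE, limma adjusted p = 1.4e-06). The others were chr1:169795223-169798650 with a difference of -2.80 ± 0.18, chr1:160038102-160042317 with -2.79 ± 0.36 (H3K18la at 66.7, 0.92, 12.8 and 36.4), chr11:17159988-17163571 with -2.75 ± 0.17, chr17:23764884-23771261 with -2.74 ± 0.30 (H3K18la at 73.4, 15.7, 14.4 and 64.5) and chr5:110013655-110016215 with -2.74 ± 0.15 (SE). H3K27ac was called in all 4 libraries at each of the 8, at mean percentiles from 65.0 to 95.2. At chr5:110013655-110016215 the maxima of the marks lay within 29 bp in all 16 pairs of libraries.

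The 6 shared places that were widest in H3K4me3 stood near the top of both lists. Their H3K18la percentiles lay at 96.1 or above and their H3K4me3 percentiles at 99.5 or above. The widest, chr9:3000001-3038385, was covered by H3K18la over 25.8 to 34.8 kb and by H3K4me3 over 38.2 to 38.4 kb, and its maxima fell within 4 bp of each other in all 16 pairs. It was called in every library of H3K27ac and H3K27me3 too. Regions of artefactual signal were not filtered here, and their part in this place was not tested. At chr6:47626854-47663973 H3K18la covered 34902, 8893, 30024 and 20322 bp and H3K4me3 covered 27253, 26004, 34015 and 28968 bp, and H3K18la ranked lower (difference -0.86 ± 0.19, SE, limma adjusted p = 0.0031). This place also carried H3K27me3 in all 4 libraries. At chr13:63386560-63405848 H3K18la covered 15507 to 18008 bp and H3K4me3 16264 to 18734 bp, and H3K18la ranked higher by 0.32 ± 0.08 (SE, limma adjusted p = 0.0061). At chr19:8957359-8976077 H3K18la covered 12688 to 17518 bp and H3K4me3 14977 to 17808 bp, with a difference of -0.04 ± 0.05 (SE, limma adjusted p = 0.48), which was -0.39 without H3K18la replicate 1 at 2 dpi and -0.36 without H3K4me3 replicate 2 at 2 dpi, past the threshold in both cases. The places chr15:76072259-76093963 and chr7:28069497-28086890 had differences of -0.43 ± 0.05 and -0.29 ± 0.05 (SE). At chr19:8957359-8976077 and chr7:28069497-28086890 the sign turned when places were ranked by maximum signal, and at chr15:76072259-76093963 the call was lost (-0.16, limma adjusted p = 0.47).

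Whether the marks diverge between 2 and 4 dpi was tested as the difference between their changes. No shared place passed the threshold (limma, 0 of 4254, 0%), and 449 (10.6%) had an unadjusted p under 0.05. Leaving out H3K18la replicate 1 at 4 dpi gave 37 calls, and leaving out replicate 2 gave 101, with 1 H3K18la library then at 4 dpi whose spread is taken from the other groups. The change of rank between the times had a Spearman correlation of 0.30 between the marks across the 4254 places, a description that shares libraries within each mark. Its SD was 0.49 for H3K18la and 0.37 for H3K4me3. Between the times H3K18la changed rank at 48 places (1.13%) and H3K4me3 at 31 (0.729%) by limma adjusted p under 0.05, and 20.6% of the places had an unadjusted p under 0.05 for H3K18la. H3K4me3 ranked lower at 4 dpi than at 2 dpi at 29 of the 31, with a median change of -0.23 in H3K18la and -1.06 in H3K4me3. The H3K18la change was above 0 at 5 of these 29 (17.2%), beside 2152 of all 4254 shared places (50.6%).

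At 3 places (0.0705%), chosen after their values were seen, the direction called at 2 dpi was the opposite of that at 4 dpi. At chr1:131615090-131621781 H3K18la stood at the 99.0 and 98.0 percentiles at 2 dpi and at 98.5 and 98.9 at 4 dpi, and H3K4me3 at 99.3 and 99.4 at 2 dpi and at 98.6 and 98.1 at 4 dpi. The difference was -0.34 ± 0.09 at 2 dpi and 0.26 ± 0.09 at 4 dpi (SE, limma adjusted p = 0.0090 and 0.027). At chr16:91201529-91206745 it was -0.43 ± 0.13 at 2 dpi and 0.34 ± 0.13 at 4 dpi (SE), and at chr1:173704545-173709213 it was 0.46 ± 0.13 at 2 dpi and -0.34 ± 0.13 at 4 dpi (SE). The test of the change itself gave limma adjusted p from 0.20 to 0.26 for these places, so none passed.

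The position of the maximum was compared next. At shared places the median distance between the H3K18la and the H3K4me3 maximum was 99.0 to 148 bp over the 16 pairs of libraries, with a median of 126 bp. It was 88.0 to 116 bp between H3K18la libraries and 41.5 to 56.0 bp between H3K4me3 libraries (6 pairs each). The ranges between marks and within H3K18la overlapped, and those of H3K4me3 libraries lay below both. Maxima within 100 bp made up 42.4% to 50.3% of the places between marks, 46.9% to 52.8% within H3K18la and 62.9% to 69.7% within H3K4me3. A distance over 1000 bp was found at 19.1% to 21.7% of the places between marks, at 13.1% to 16.7% within H3K18la and at 6.51% to 9.66% within H3K4me3.

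**Figure D5:**
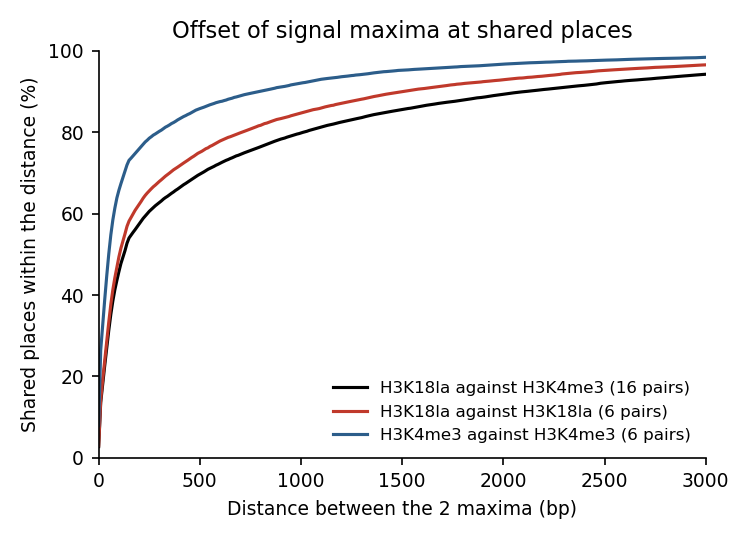
Share of shared places (percent, vertical axis) whose maxima lie within a given distance (bp, horizontal axis), pooled over the 16 pairs of libraries between the marks (black), the 6 pairs of H3K18la libraries (red) and the 6 pairs of H3K4me3 libraries (blue). The H3K18la curve runs close above the curve between marks, and the H3K4me3 curve lies highest.

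Distances between the marks were greater in long places. In the shortest 20% of shared places (up to 2913 bp) the median distance was 78.0 bp between marks, 81.0 bp within H3K18la and 49.0 bp within H3K4me3. In the longest 20% (6363 bp and more) it was 772 bp between marks, 127 bp within H3K18la and 53.0 bp within H3K4me3. Distances over 1000 bp grew more common in long places within each mark too. In the longest 20% they made up 46.6% between marks, 31.7% within H3K18la and 17.3% within H3K4me3. In the shortest 20% they made up 1.91%, 2.04% and 0.78%. At the 2390 places with a single peak in each of the 8 lists, a comparison added after the data had been seen, the median was 96.0 bp between marks, 92.0 bp within H3K18la and 49.0 bp within H3K4me3. The maximum of H3K18la lay in bases called for H3K4me3 at 96.0% ± 0.40 of the shared places, and the maximum of H3K4me3 lay in bases called for H3K18la at 93.5% ± 0.49 (SD, n = 4 each). Maxima lay 566, 582, 566 and 574 bp from the middle of the place in H3K18la libraries and 524, 543, 509 and 520 bp in H3K4me3 libraries, and the marks did not overlap (572 ± 7.7 against 524 ± 14 bp, SD, n = 4 each, exact permutation p = 0.0286, adjusted p = 0.0714). At places with a single peak in every list this difference of 48.3 bp was 21.5 bp. The middle is that of a place merged from the peaks of the same 8 lists, in which H3K4me3 had the longer mean called length. The reference point thus depends on the peaks compared, and the test cannot place the maxima against a start site.

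At 541 shared places (12.7%) the maximum of each mark was stable, with all pairs of libraries of a mark within 100 bp. Of these, the marks coincided within 100 bp in all 16 pairs at 398 places (73.6%) and lay over 1000 bp apart in all 16 pairs at 32 places (5.91%). Over all 4254 shared places, without the condition of stable maxima, the counts were 440 (10.3%) and 193 (4.54%). The 4 most displaced of the 32 were picked after their values were seen. At chr12:104956179-104980914 the maxima were 16542 to 16548 bp apart in the 16 pairs, with H3K18la at percentiles of 99.8 or above and H3K4me3 from 97.6 to 99.7. At chr14:40675962-40690615 they were 10418 to 10568 bp apart, at chr1:105707322-105720617 8379 to 8532 bp, and at chr5:34682903-34697555 8112 to 8209 bp. H3K27ac was called in all 4 libraries at these 4 places, and H3K27me3 in none.

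Places of 1 mark alone were weaker and shorter than shared places. H3K18la alone had a median called length of 1612 ± 213 bp, against 2236 ± 350 bp at shared places, and H3K4me3 alone had 2044 ± 370 bp, against 2931 ± 381 bp at shared places (SD, n = 4 each). The mean percentile of H3K18la exceeded 90 at 197 of its 3364 places without H3K4me3 (5.86%) and at 22.8% of the shared places. The mean percentile of H3K4me3 exceeded 90 at 41 of its 4290 places without H3K18la (0.96%) and at 26.0% of the shared places. The nearest peak of the other mark lay at a median of 14.4 kb from H3K18la alone and 28.7 kb from H3K4me3 alone, and within 1 kb for 4.52% and 2.84% of the places.

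The further marks differed in share between the one-mark places. H3K27ac was called in all 4 of its libraries at 56.8% of the places of H3K18la alone, at 50.2% of those of H3K4me3 alone and at 96.6% of the shared places, beside 43.7% of all places. No H3K27ac library had a peak at 55 (1.63%) of the places of H3K18la alone, at 596 (13.9%) of those of H3K4me3 alone and at 0 of the 4254 shared places, beside 13.6% of all places. All places include many that were called in few lists. Among the places with H3K4me3 in all 4 libraries, 641 (4.84%) had no H3K27ac peak and 76.0% had H3K27ac in all 4. Among the places with H3K18la in all 4 libraries, 0.60% had no H3K27ac peak and 79.6% had H3K27ac in all 4. H3K27me3 was called in all 4 of its libraries at 65 (1.93%) of the places of H3K18la alone, at 799 (18.6%) of those of H3K4me3 alone and at 4.04% of the shared places, beside 7.82% of all places. Chromosome X held 24 (0.71%) of the places of H3K18la alone, 159 (3.71%) of those of H3K4me3 alone, 1.32% of the shared places and 1.91% of all places. These shares are counts without a test.

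The 6 strongest places of H3K18la alone were at the 98.2 percentile or above in every H3K18la library. The first, chr16:3459215-3481205, was covered over 19024 to 21991 bp, and the nearest H3K4me3 peak lay 49.6 kb away. It was called for H3K27ac in all 4 libraries at a mean percentile of 51.8 and for H3K27me3 in 2 libraries. On chromosome 11, chr11:121684233-121700239 and chr11:121630340-121640279 were covered over 6.99 to 15.3 kb and 7.73 to 9.43 kb, with H3K27ac at 98.2 and 98.6 and no H3K27me3. The other members were chrX:169113672-169116800, chr10:120458129-120465668 and chr19:32251613-32260165, and the last of these lay closest to an H3K4me3 peak, at 1.08 kb. H3K27ac was called in all 4 libraries at all 6.

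The 6 strongest places of H3K4me3 alone were at the 95.4 percentile or above in every H3K4me3 library. At 3 of them H3K27me3 was called in all 4 libraries. These were chr14:84678037-84686427 with H3K27me3 at a mean percentile of 98.5, chr1:57008010-57023680 with 99.2 and chr13:63710751-63719323 with 88.8. H3K27ac there stood at 52.8, 52.7 and 35.9, and in the first of them it was called in 2 of 4 libraries. The 3 others, chr7:41147381-41150839, chr1:9614538-9619715 and chr2:140010692-140014262, had no H3K27me3 peak and carried H3K27ac in all 4 libraries at 42.0, 84.4 and 81.6. An H3K18la peak lay 5.00 kb away at the nearest, beside chr14:84678037-84686427, and 101 to 254 kb from the other 5.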

How the data were processed

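CUT&Tag peak lists of macrophages at 2 and 4 dpi were used, 4 of H3K18la and 4 of H3K4me3, with 4 lists each of H3K27ac and H3K27me3 as context. The submitters' processing notes name Trim Galore 0.6.6 for trimming, Bowtie2 2.4.4 for alignment, SAMtools 1.13, bedtools 2.30 and the peak caller SEACR 1.3, which the methods state as stringent with a threshold of 0.01 in each library. The signal the authors deposited is the sum and the maximum of fragment coverage per peak, with no normalization between libraries. Whether list length moves with depth was not tested. All values were whole numbers.

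Coordinates were taken as GRCm39, as the labels state, while the methods name mm10 for alignment. Peaks on 5 of 21 chromosomes end beyond the GRCm38 chromosome ends. Gene starts, CpG content and gene lists, planned for the annotation, were not run, and the middle of a place stood in for the start site. The methods state that peaks in blacklist regions were removed, and no blacklist was applied here to the lists as deposited. For H3K27me3 at 4 dpi the list names number the replicates the other way round, and the labels were followed.

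Peaks on chromosomes 1 to 19, X and Y were merged over the 8 lists. A percentile is the rank of summed total signal among the places of a list. Library values were compared with exact 2-sided permutation tests (70 label assignments, smallest p 0.0286), adjusted over 5 contrasts. These tests treat libraries as independent, although overlaps of the same pairs of lists enter the values of both marks. Ranks at shared places were tested with limma 3.58.1 (R 4.3.3, trended and robust variance) on normal scores, one mean per mark and time point, and the script was tested on simulated data. The named places were the 8 largest rank differences in each direction among called places whose marks did not overlap, the 6 strongest of each mark alone and the 6 widest by H3K4me3. Members, lists and this rule were chosen with earlier results of these data known. Python 3.11.15 and scipy 1.17.1 were used. Alternatives were stricter or equal list lengths, libraries left out, other rank measures, overlaps and place definitions, and pairing by replicate number.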

Additional observations from a re-analysis of the deposited data

Results flagged for a closer look

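In 3 of 70 groups of 4 libraries examined, 1 library stood far from the other 3 by Dixon's ratio, where chance gives about 1 in 20 groups. At chr19:29460097-29468133 H3K18la of replicate 2 at 2 dpi was at the 99.08 percentile, below the other H3K18la libraries at 99.6 to 99.7. At chr7:28069497-28086890 the same library was at the 99.32 percentile, below the others at 99.7 to 99.8. At chr9:3000001-3038385 H3K4me3 of replicate 1 at 4 dpi was at the 99.9945 percentile, a difference of rank among places at the very top of the list.

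Outside the 21 chromosomes the 8 lists held 263 peaks, at most 0.25% of a list, which no comparison used. Every list had 1 mitochondrial peak, and the peaks on other contigs numbered 49, 37, 30 and 30 in H3K18la lists and 34, 31, 20 and 24 in H3K4me3 lists. No control library was used here.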

How the results depend on the processing

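Differences are H3K18la minus H3K4me3, each with Benjamini-Hochberg adjusted p from exact permutation tests over libraries. With only the stronger 50% of each list the step between the strongest and weakest 20% was -30.6 points, the step between the widest and narrowest 20% -28.0 points, the called length -1010 bp (-1009.75) and the distance of the maximum from the middle 110 bp (109.5), all past the threshold, with 1481 shared places, 999 called rank differences (469 higher and 530 lower), a median offset of 145 bp and a rank correlation of 0.23. With lists of equal length the share meeting the other mark was 3.11 points, opposite in sign to the -0.22 as deposited, and the steps by rank and width (-8.73 and -18.7 points), called length (-789 bp) and distance (51.0 bp) passed. Ranking by maximum or mean signal turned the step by rank to 3.07 and 6.09 points, and the rank correlation was 0.00308 and 0.0230. Asking that 50% of the peak be overlapped turned the share (10.2 points), the step by rank (17.8 points) and by width (7.22 points), with exact permutation adjusted p of 0.0571. With 3 of 4 libraries required, places of H3K18la alone numbered 5574 and called length differed by -742 bp. Single-peak places gave an offset of 96.0 bp. The cause of these changes was not tested.

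With each library left out in turn the share ranged from -5.74 to 7.14 points, the step by rank from -5.93 to -0.25, the step by width from -14.5 to -10.1, called length from -860 to -483 bp, distance from 28.4 to 58.8 bp and calls of a change with time from 0 to 101 (37 without H3K18la replicate 1 at 4 dpi, 101 without replicate 2). The step by width, called length and distance passed the threshold when either one of the H3K18la libraries of 2 dpi was left out. Rank differences called ranged from 2951 to 3594, and stayed within 1.5 times of the main count under the settings beside the stronger 50% of each list. Places of H3K4me3 alone numbered up to 5871, without H3K18la replicate 1 at 2 dpi.

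The 16 places of largest rank difference kept direction and call wherever they were tested, but none could be tested in the stronger 50% of lists and 13 could not in lists of equal length, among them all 8 that ranked higher in H3K18la, since they were then no longer shared. Of the widest places, chr19:8957359-8976077 gave 0.028 in the stronger 50% of lists, 1.31 by maximum and 0.93 by mean signal, and chr7:28069497-28086890 gave 0.44 by maximum and 0.28 by mean signal.

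The study states that the marks were profiled in the same samples, but the sources do not say that a replicate number marks a sample. Deviations of same-numbered libraries had correlations of 0.05 at 2 dpi and 0.05 at 4 dpi, so pairing by number was not used in the main tests. With the replicate block, limma called 3202 rank differences (1480 higher and 1722 lower) and 0 changes with time, and the paired sign-flip test over 4 pairs, which cannot reach the threshold, gave adjusted p of 0.88 for the share and 0.31 for the other 4 contrasts. Planned results on gene starts and CpG content were not run.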
